A study of Homo sapiens with 32 samples.

Results

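The CDK inhibitor family was followed here through 8 genes: CDKN1A, CDKN1B, CDKN1C, CDKN2A, CDKN2B, CDKN2C, CDKN2D and CDKN3. They were chosen by gene symbol and are 8 of the 60107 genes in the count table. RNA of U2OS cells, an osteosarcoma line, and of HEK293T cells, an embryonic kidney line that carries the SV40 large T antigen, was sequenced from transcript 3′ ends in 32 libraries. Cells had been exposed to camptothecin (CPT), a poison of topoisomerase I, to an ATM inhibitor or to the vehicle DMSO, or had lost the DNA damage kinase ATM.

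The family falls into classes with different targets. The Cip/Kip inhibitors p21 (CDKN1A), p27 (CDKN1B) and p57 (CDKN1C) bind complexes of cyclins with CDK2 and related kinases. The INK4 inhibitors p16 (CDKN2A), p15 (CDKN2B), p18 (CDKN2C) and p19 (CDKN2D) bind CDK4 and CDK6 and keep cyclin D from activating them. Both classes keep the retinoblastoma protein RB unphosphorylated, and RB then holds the E2F factors that drive S-phase genes. CDKN3 is a phosphatase that acts on CDK2 and is itself made mainly by dividing cells. CDKN1A is the member best known for its induction in damaged cells, and large T antigen binds RB, so the 2 lines are known to differ in the wiring around this family.

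Libraries carry numbers in their titles, and each comparison set 4 libraries against 4. Libraries 26 to 29 are labelled U2OS with CPT and libraries 30 to 33 U2OS with DMSO. Libraries 18 to 21 are labelled HEK293T ATM KO and are called ATM inhibitor here, since the study treated HEK293T cells of this experiment with the ATM inhibitor Ku-55933. Libraries 22 to 25 are HEK293T with DMSO. Per the labels, HEK293T cells had CPT or DMSO for 24 h and a recovery of 48 h, and U2OS cells were grown for 72 h untreated. That untreated growth cannot describe libraries 26 to 33, which are labelled U2OS with CPT or DMSO. The study's methods give the same 24 h of drug and 48 h without it as the usual course of its genotoxic drug treatments. The U2OS ATM knockout was made with CRISPR/Cas9 and a homology-directed repair (HDR) plasmid. Single clones were picked, so it rests on the picked clones. The study's methods describe the 4 repeats of a comparison as independent.

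For 14 of the other 16 libraries the profile goes against the cell line of the label. Libraries 10, 12, 14 and 16 are labelled U2OS ATM KO, libraries 11, 13 and 15 U2OS WT and library 17 HEK293T DMSO, and all 8 have the profile of HEK293T cells. Libraries 2, 4, 6 and 8 are labelled HEK293T CPT, libraries 3, 5 and 7 HEK293T DMSO and library 1 U2OS WT, and all 8 have the profile of U2OS cells. Of 10 U2OS markers, all 10 were higher without overlap in the 16 U2OS or U2OS-like libraries, with summed levels of 2819 to 5994 CPM (counts scaled to a library total of 1000000 counts on genes) against 75.8 to 248 CPM in the 16 others. Much of the sum was CLU, at 1673 to 4107 CPM in the U2OS and U2OS-like libraries. CLU and CRYAB are not independent markers, since the study reported both as higher in U2OS from its own RNA sequencing. Of 8 HEK293T markers only 4 were higher without overlap in the HEK293T or HEK293T-like libraries. These were LIN28B, ZIC2, ZIC5 and SALL2, while PAX2, NEFL and PEG10 overlapped and BEX1 was higher in the U2OS and U2OS-like libraries. The sums of the 8 overlapped, at 322 to 445 CPM in the HEK293T and HEK293T-like libraries against 137 to 337 CPM in the others. These libraries are called HEK293T-like even (10, 12, 14, 16), HEK293T-like odd (11, 13, 15, 17), U2OS-like even (2, 4, 6, 8) and U2OS-like odd (1, 3, 5, 7). If the cell lines of the labels had been exchanged, the HEK293T-like set would compare CPT with DMSO and the U2OS-like set the ATM knockout with wild type, but no label says so, and no direction is drawn here for a condition from these 16 libraries.

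Depth ran between 1232674 and 6362433 counts on genes in a library, with a median of 3359463.5. A count of 3, taken as the floor of detection, equals 2.43 CPM in the shallowest library and 0.472 CPM in the deepest, and this floor covers counting error only. ATM messenger RNA, the target of the knockout, stood at 39.8, 39.5, 32 and 28.8 CPM in the libraries labelled U2OS ATM KO (10, 12, 14, 16) and at 57.2, 26.6, 21.2 and 34.2 CPM in those labelled U2OS WT (1, 11, 13, 15). The study does not give the edited site, and such an edit need not remove the 3′ end that was counted. ATM counts therefore check neither the knockout nor its label. By profile, ATM was 61.7, 52.9, 54.7 and 34.2 CPM in the U2OS-like even and 57.2, 68.4, 53.4 and 63.5 CPM in the U2OS-like odd libraries, with overlap (log2 fold change −0.31, SE 0.17, adjusted p = 0.25).

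Differences below were tested over all genes with edgeR's quasi-likelihood test and called at an absolute log2 fold change over 1 with a Benjamini-Hochberg adjusted p under 0.05. In bulk RNA, fewer cells that express a gene cannot be told apart from less RNA per cell.

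**Figure D1:**
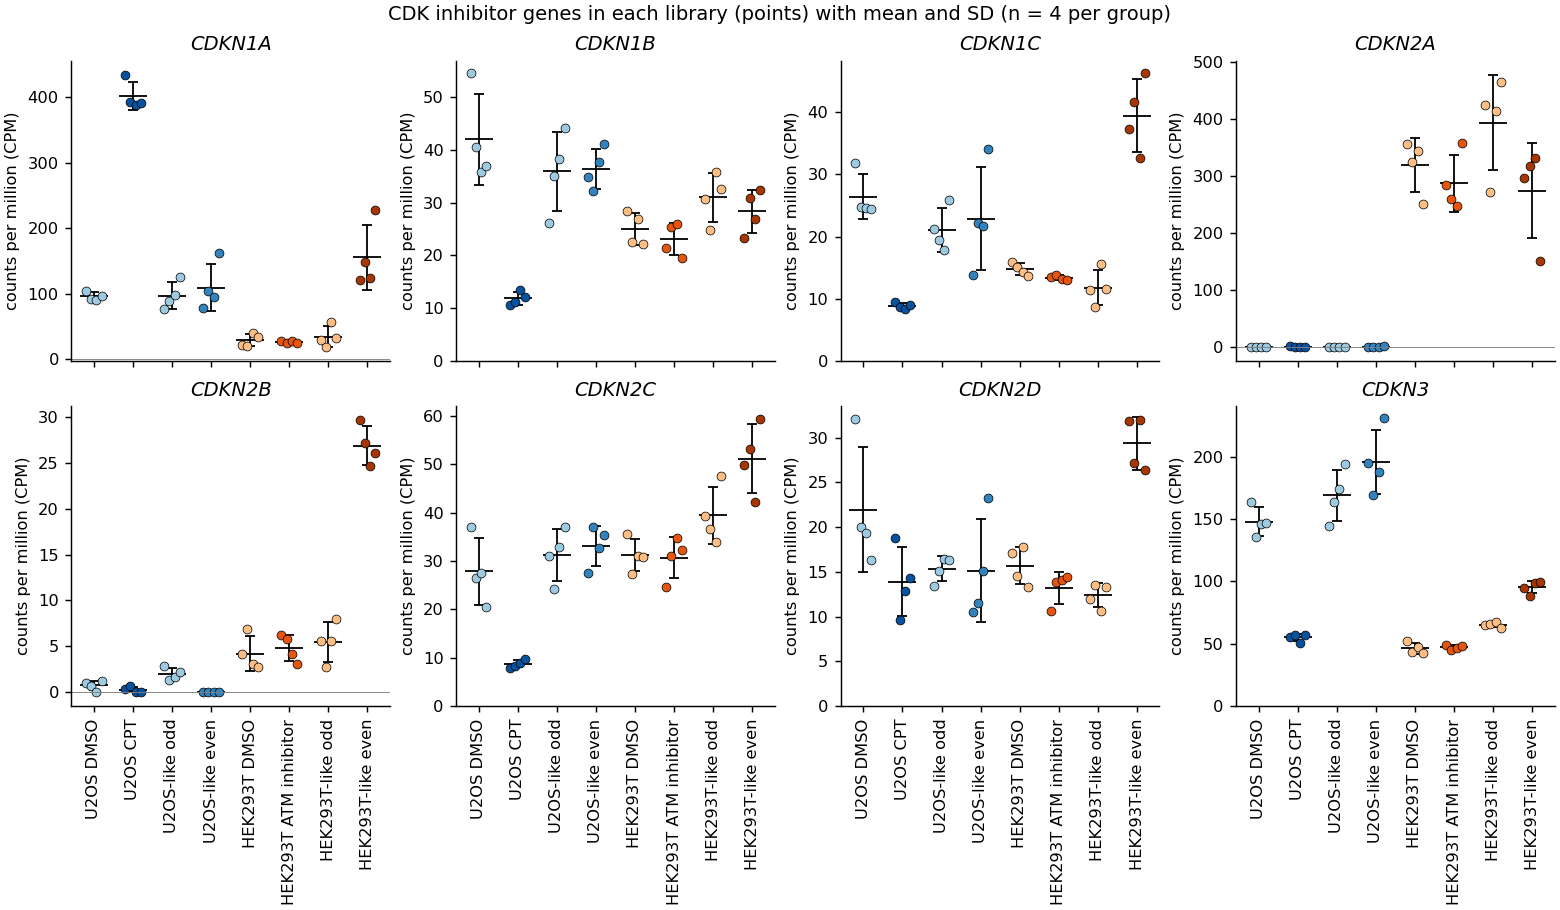
Level of each CDK inhibitor gene (vertical axis, CPM) in each of the 32 libraries (points), with the mean and SD of the 4 libraries in a group (bars); groups are named on the horizontal axis. CDKN1A was highest in U2OS CPT (389 to 434 CPM), CDKN2A lay between 151 and 465 CPM in HEK293T and HEK293T-like libraries against at most 1.37 CPM in the others, and CDKN2B reached 24.6 to 29.7 CPM only in the HEK293T-like even libraries.

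Without CPT or inhibitor, the 2 lines differed in the levels of some inhibitor genes. The DMSO groups of the lines belong to separate experiments, so line and experiment cannot be told apart here. U2OS cells with DMSO had more CDKN1A, CDKN3 and CDKN1C than HEK293T cells with DMSO, and HEK293T cells had more CDKN2A and CDKN2B. In this comparison 21.8% of 19739 genes tested were called higher and 18.1% lower in U2OS, so calls of this kind were frequent among all genes. Of the 8 inhibitor genes, 3 were called higher and 2 lower, and 7 passed the adjusted p alone, against 62.1% of all genes. CDKN2A, 1 of the 2 called lower, passed the count filter only through the HEK293T libraries. With shares of all genes this high, the family is not read as standing apart.

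CDKN2A separated the lines most widely. It was counted at 356, 324, 345 and 251 CPM in the HEK293T DMSO libraries and at 0.31, 0, 0.29 and 0 CPM in the U2OS DMSO libraries. The latter are 2 reads in all, so the ratio of the summed CPM was 2194 with an exact 95% counting interval of 607 to 18124. No U2OS DMSO library held more than 1 read, so the gene passed the count filter only through the HEK293T libraries. Its call is therefore a description. Over the 16 U2OS and U2OS-like libraries, CDKN2A had 15 reads, and 8 of them were in library 8. U2OS cells are known to lack p16. CDKN2A makes p16 from one promoter and the tumour suppressor ARF from another, and both transcripts share their last exon, so 3′ counts pool them. Both promoters, 250 bases up to the start of transcription on the minus strand of chromosome 9 (RefSeq, GRCh38.p14), are printed because the counts cannot tell them apart, with a GC box, the SP1 motif GGGCGG, in capitals where present. The first starts the ARF transcript at chr9:21995325-21995574 and the second lies nearer to the shared exons at chr9:21974858-21975107.
CDKN2A distal promoter: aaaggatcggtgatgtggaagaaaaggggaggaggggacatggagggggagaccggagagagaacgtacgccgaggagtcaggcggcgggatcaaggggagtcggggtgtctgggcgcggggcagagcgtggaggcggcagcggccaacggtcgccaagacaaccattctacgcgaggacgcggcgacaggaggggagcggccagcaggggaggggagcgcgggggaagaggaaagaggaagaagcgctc
CDKN2A proximal promoter: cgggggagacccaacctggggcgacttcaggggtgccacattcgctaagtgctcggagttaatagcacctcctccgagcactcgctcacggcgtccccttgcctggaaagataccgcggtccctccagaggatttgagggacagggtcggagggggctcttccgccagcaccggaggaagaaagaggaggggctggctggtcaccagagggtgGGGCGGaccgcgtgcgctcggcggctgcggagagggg

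The neighbouring gene CDKN2B, which encodes p15 and is a known target of TGF-β signalling, was lower in U2OS as well. HEK293T DMSO libraries held 4.19, 6.85, 3.01 and 2.67 CPM and U2OS DMSO libraries 0.93, 0.69, 0 and 1.20 CPM. The ranges did not overlap (log2 fold change −2.24, SE 0.50, adjusted p = 1.8e-04), but the U2OS values rest on 10 reads. CDKN2B-AS1, the antisense transcript that overlaps CDKN2B, was also lower (log2 fold change −3.28, adjusted p = 6.8e-08). The library kit and the counting pipeline are named as forward (FWD), but the strand setting of the counting is not stated. Whether reads of the pair were kept apart is therefore not known.

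CDKN1A was higher in U2OS DMSO, with 105, 91.5, 91.1 and 96.4 CPM against 22.1, 20.8, 40.1 and 34.1 CPM (log2 fold change 1.93, SE 0.15, adjusted p = 2.2e-13). All 4 U2OS libraries lay above all 4 HEK293T libraries. CDKN3 was 148 ± 11.6 CPM (SD, n = 4) in U2OS and 46.2 ± 4.38 CPM in HEK293T (log2 fold change 1.90, SE 0.12, adjusted p = 3.9e-16). CDKN1C was 26.4 ± 3.59 CPM against 14.7 ± 0.974 CPM (log2 fold change 1.06, SE 0.15, adjusted p = 3.0e-07), which falls to 0.84 and under the fold cutoff without TMM scaling.

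The remaining 3 genes were not called. CDKN1B was 42.0 ± 8.68 CPM in U2OS against 25 ± 3.09 CPM without overlap, at a log2 fold change of 0.96 (adjusted p = 4.0e-07) just under the fold cutoff, which it passed when library 22, 32 or 33 was left out. CDKN2D was 21.9 ± 6.96 CPM against 15.7 ± 2.09 CPM with overlapping ranges (log2 fold change 0.69, adjusted p = 0.0011). CDKN2C was 27.9 ± 6.87 CPM against 31.2 ± 3.36 CPM, with a log2 fold change of 0.05 and a 95% interval of −0.26 to 0.35.

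Among 12 cyclins and CDKs, 3 were called higher and 0 lower, set against the 21.8% and 18.1% of all genes, led by the G1 cyclins CCND1 (2.32) and CCNE1 (1.49) on the log2 scale. Of 18 regulators of the family, 1 was higher and 5 were lower, among them MYC (−2.80), known to repress CDKN1A and CDKN2B, and EZH2 (−1.38), the Polycomb methyltransferase known for silencing the CDKN2A locus. With shares of all genes this high, neither list is read as standing apart.

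CPT changed 5 of the 7 inhibitor genes that could be tested in U2OS cells, and it moved them in opposite directions. CDKN1A rose 4.71-fold while CDKN1B, CDKN1C, CDKN2C and CDKN3 fell to between 0.320 and 0.420 of their DMSO level. Among all 19080 genes tested, 7.97% were called up and 5.5% down, and 31.9% passed the adjusted p alone. The median log2 fold change was −1.33 over the 7 inhibitor genes and 0.0079 over all genes.

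CDKN1A encodes p21, which halts cells with damaged DNA. Its level was 434, 393, 389 and 390.2 CPM in the CPT libraries (26 to 29) and 105, 91.5, 91.1 and 96.4 CPM in the DMSO libraries (30 to 33). The lowest CPT library was thus far above the highest DMSO library, and the 4 libraries of each group stayed close together (log2 fold change 2.24, SE 0.11, adjusted p = 1.9e-16). By adjusted p, CDKN1A was number 35 of the 19080 genes. Its promoter is printed here as that of the most strongly called member, from chr6:36678464-36678713 on the plus strand (RefSeq, GRCh38.p14), with GC boxes in capitals.
CDKN1A promoter: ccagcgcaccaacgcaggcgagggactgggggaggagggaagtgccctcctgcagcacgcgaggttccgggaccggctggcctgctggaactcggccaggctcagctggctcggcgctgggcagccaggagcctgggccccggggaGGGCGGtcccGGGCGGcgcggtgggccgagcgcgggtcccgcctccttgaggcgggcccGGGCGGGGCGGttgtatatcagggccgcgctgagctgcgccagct
These 250 bases hold 4 GC boxes, starting 104, 94, 45 and 40 bases before the start, where the last 2 overlap by a base. On either strand, a GC box stands in 42.6% of 35116 RefSeq promoters of this length.

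CDKN1B encodes p27, the inhibitor that accumulates in resting cells. It was counted at 10.6, 11.2, 13.5 and 12.2 CPM with CPT and at 54.6, 40.6, 35.7 and 37.0 CPM with DMSO. Every CPT library lay below every DMSO library (log2 fold change −1.65, SE 0.16, adjusted p = 7.0e-10). CDKN1C, encoding p57, had 9.42, 8.69, 8.31 and 9.05 CPM against 31.8, 24.8, 24.6 and 24.5 CPM (−1.39, SE 0.17, adjusted p = 7.7e-08 on the log2 scale). All 3 Cip/Kip genes therefore changed, with CDKN1A opposite to the others.

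Among the INK4 genes, only CDKN2C was called. CDKN2C, encoding p18, had 7.94, 8.37, 9.0 and 9.67 CPM with CPT and 37.0, 26.5, 27.5 and 20.4 CPM with DMSO (log2 fold change −1.48, SE 0.18, adjusted p = 9.2e-08). CDKN2D, encoding p19, had 18.8, 9.62, 12.8 and 14.3 CPM against 32.1, 19.96, 19.3 and 16.3 CPM. These ranges overlapped in 1 CPT library, number 26, and CDKN2D was not called (log2 fold change −0.46, 95% interval −0.86 to −0.064, adjusted p = 0.069), although the adjusted p was under 0.05 without library 26 or 33. CDKN2B was at or near the floor in all 8 libraries, with 3 reads under CPT and 10 under DMSO, a 3.09-fold ratio whose counting interval ran from 0.796 to 17.5. CDKN2A had 3 reads and 2 reads and was not tested.

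CDKN3, the CDK2 phosphatase, had 55.6, 56.8, 50.6 and 57.1 CPM with CPT and 163, 135, 146 and 147 CPM with DMSO. The groups were far apart (log2 fold change −1.25, SE 0.12, adjusted p = 2.8e-10). Its promoter, chr14:54396757-54397006 on the plus strand (RefSeq, GRCh38.p14), is printed because it was the only member's window with a cell cycle homology region (CHR), the letters TTTGAA on either strand, shown in capitals as they read on the plus strand.
CDKN3 promoter: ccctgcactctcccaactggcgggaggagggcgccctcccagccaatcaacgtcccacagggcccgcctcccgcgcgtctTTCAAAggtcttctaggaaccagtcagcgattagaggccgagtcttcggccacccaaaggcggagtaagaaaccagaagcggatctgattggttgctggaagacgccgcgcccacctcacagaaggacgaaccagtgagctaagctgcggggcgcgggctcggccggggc
The CHR began 170 bases before the start, and 13.3% of all RefSeq promoters of this length hold those letters on either strand. The E2F sites TTTGGCGC, TTTCCCGC, TTTCGCGC and TTTGCCGC, searched on both strands, were in 0 of the 10 windows of the 7 members with a RefSeq promoter entry and in 2.79% of all windows. The TATA box TATAAA was likewise in 0 of them and in 10.7% of all windows. CDKN1C had no entry.

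**Figure D2:**
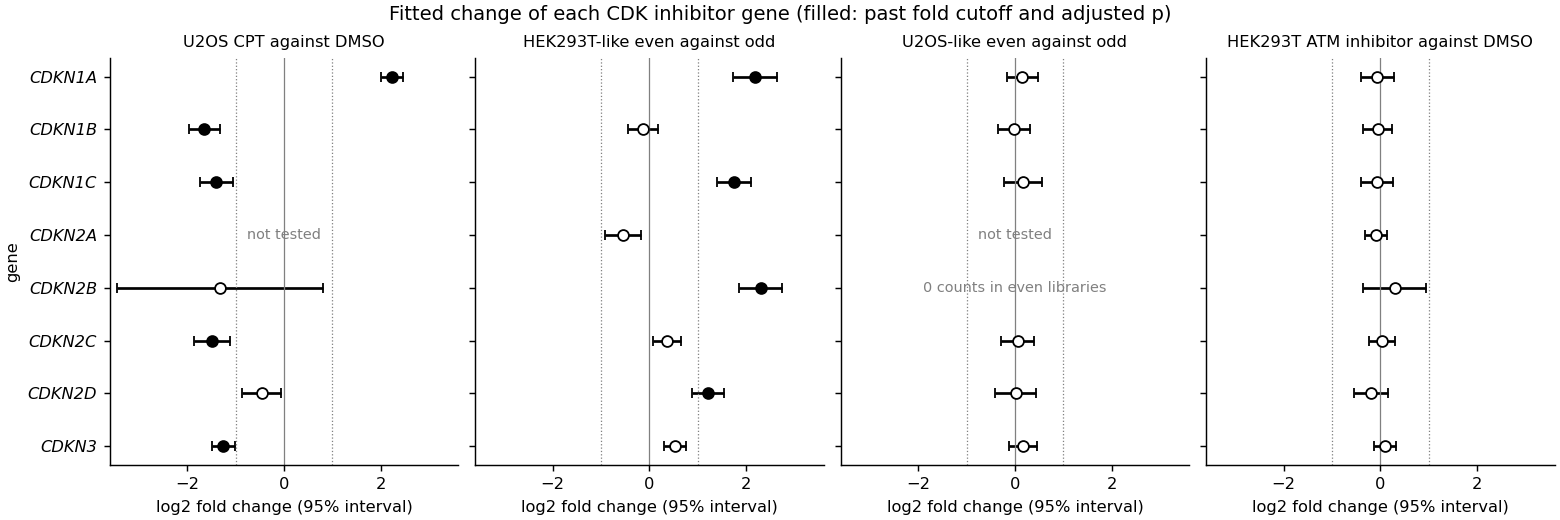
Fitted log2 fold change (points, horizontal axis) with its 95% interval (bars) for each CDK inhibitor gene in the 4 comparisons; filled points passed both the fold cutoff, drawn dotted, and the adjusted p. With CPT in U2OS cells, CDKN1A lay at 2.24 and CDKN1B, CDKN1C, CDKN2C and CDKN3 between −1.65 and −1.25, while in the ATM inhibitor comparison all 8 lay between −0.19 and 0.29.

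The genes around the inhibitors moved in groups. The list of 18 genes known to be induced by DNA damage, without CDKN1A, had 14 members called up and 0 down. Among all genes, 7.97% were called up and 5.5% down. The median log2 fold change of the list was 1.46. GDF15 (3.63), the death receptor FAS (2.76) and the ubiquitin ligase MDM2 (2.0) changed most.

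Genes of dividing cells were called lower. Of 12 G2/M genes, 6 were called down and 12 passed the adjusted p alone, against 5.5% and 31.9% of all genes. Their median log2 fold change was −1.05. The called genes were led by the mitotic kinase PLK1 (−1.47), the kinesin KIF20A (−1.40) and survivin, BIRC5 (−1.22). Of 12 S-phase genes, 5 were called down, led by the replicative helicase subunits MCM6 (−1.80), MCM7 (−1.48) and MCM2 (−1.39). In the RB and E2F list, 4 of 13 were called down, including E2F2 (−1.76), E2F1 (−1.21) and E2F8 (−1.10). Of 12 cyclins and CDKs, the D cyclin CCND2 rose (1.62) and cyclin A2, CCNA2, fell (−1.15).

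Of 18 regulators, 1 was called up and 1 down, against 7.97% and 5.5% of all genes. MYC rose from 13.2 ± 3.0 to 29.1 ± 2.37 CPM (log2 fold change 1.32, adjusted p = 1.9e-07). SKP2 and CKS1B, which together mark p27 for degradation, had log2 fold changes of −0.80 and −0.73 under the fold cutoff (adjusted p = 4.6e-05 and 9.3e-05). Among 8 genes next to the CDKN2A–CDKN2B and CDKN1C loci, MTAP (−1.19) and DMRTA1 (−1.51) fell on the CDKN2A side. PHLDA2, which is imprinted together with CDKN1C and lies near it, rose from 42.2 ± 5.44 to 107 ± 11.3 CPM (log2 fold change 1.52, adjusted p = 1.1e-11), opposite to CDKN1C.

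Markers of the line moved too. The summed level of the 10 U2OS markers was 2819 to 3296 CPM with DMSO and 5398 to 5994 CPM with CPT, 6 of the 10 were called up, and CD44 rose most (log2 fold change 2.72). The 8 HEK293T markers summed to 296 to 331 CPM and 300 to 337 CPM, with ZIC5 at 0 in all 8 libraries. Their part in the inhibitor changes was not tested. Library totals alone, without TMM scaling, moved the median of all genes from 0.0079 to −0.16 and the calls from 1520 up and 1049 down to 1251 up and 1535 down, while CDKN1A was still called up (2.06) and the 4 others down.

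The ATM inhibitor comparison in HEK293T cells gave no call for the family. With 4 libraries against 4, 0% of 18413 genes were called up and 0% down, and 0.00543% (1 gene) passed the adjusted p alone, with 1019 genes at an unadjusted p under 0.05. DESeq2 called 0 genes and edgeR's likelihood ratio test 2. The 8 inhibitor genes had log2 fold changes between −0.19 and 0.29, and their lowest adjusted p was 0.94.

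CDKN2A, the inhibitor gene with the largest share of reads in these cells, was 284, 260, 247 and 358 CPM with the inhibitor and 356, 324, 345 and 251 CPM with DMSO. The ranges overlapped widely (log2 fold change −0.094, 95% interval −0.32 to 0.13). CDKN1A was 28.5, 24.7, 28.7 and 25.3 CPM against 22.1, 20.8, 40.1 and 34.1 CPM, also with overlap (−0.070, 95% interval −0.41 to 0.27). For the others the interval of the log2 fold change was −0.35 to 0.25 for CDKN1B, −0.41 to 0.27 for CDKN1C, −0.24 to 0.31 for CDKN2C, −0.54 to 0.15 for CDKN2D and −0.14 to 0.32 for CDKN3. CDKN2B, with 9 to 24 reads in a library, had the widest interval, −0.35 to 0.94. A change of 2-fold, 1 on the log2 scale, lay outside the interval of each of the 8 genes. ATM itself was 62.2 ± 9.07 CPM with the inhibitor and 67.7 ± 11.6 CPM with DMSO (adjusted p = 0.98).

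The HEK293T-like even and odd libraries differed in 4 inhibitor genes, all higher in the even libraries. CDKN2B was 4.94-fold, CDKN1A 4.51-fold, CDKN1C 3.34-fold and CDKN2D 2.31-fold higher. Over all 19464 genes tested, 9.52% were called up and 4.45% down, and 34.9% passed the adjusted p alone. The median log2 fold change was 0.87 over the 8 genes and 0.041 over all genes. The labels give the even libraries as U2OS ATM KO and the odd as U2OS WT or HEK293T DMSO, against the profile of the cells, so the direction belongs to the libraries and not to a treatment.

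CDKN2B gave the clearest separation. It was counted at 29.7, 27.2, 24.6 and 26.1 CPM in the even libraries (10, 12, 14, 16) and at 5.56, 2.71, 5.56 and 7.98 CPM in the odd libraries (11, 13, 15, 17). The lowest even library was over 3 times the highest odd library (log2 fold change 2.3, SE 0.22, adjusted p = 2.6e-08). CDKN2B-AS1 had a log2 fold change of −0.53 (adjusted p = 0.26). The CDKN2B promoter, chr9:22009306-22009555 on the minus strand (RefSeq, GRCh38.p14), is printed for this gene, with GC boxes in capitals, which appear as CCGCCC where they lie on the other strand.
CDKN2B promoter: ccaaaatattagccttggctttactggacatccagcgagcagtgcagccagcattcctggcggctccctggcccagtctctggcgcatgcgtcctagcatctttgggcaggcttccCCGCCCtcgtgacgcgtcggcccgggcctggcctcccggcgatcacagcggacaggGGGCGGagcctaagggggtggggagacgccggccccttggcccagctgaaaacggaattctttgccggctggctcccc
It holds 2 GC boxes, at 134 and 78 bases before the start. Over the 10 windows of 7 members, 7 hold a GC box.

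CDKN1A, encoding p21, was 121, 149, 125 and 228 CPM in the even libraries and 29.6, 19.5, 56.9 and 32.4 CPM in the odd. The groups did not overlap, although library 16 stood above the other even libraries and library 15 above the other odd ones (log2 fold change 2.17, SE 0.22, adjusted p = 8.8e-08). CDKN1C was 37.4, 41.7, 32.6 and 46.4 CPM against 11.5, 8.63, 15.6 and 11.5 CPM, again without overlap (1.74, SE 0.17, adjusted p = 5.2e-08 on the log2 scale). CDKN2D was 31.8, 27.2, 32 and 26.4 CPM against 11.96, 13.5, 10.7 and 13.3 CPM (log2 fold change 1.21, SE 0.16, adjusted p = 4.2e-06).

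Smaller differences stayed under the fold cutoff. CDKN3 was 95.4 ± 5.07 CPM in the even and 65.1 ± 2.03 CPM in the odd libraries without overlap (log2 fold change 0.53, adjusted p = 8.2e-04). CDKN2C was 51.2 ± 7.15 CPM against 39.4 ± 5.90 CPM with overlap (0.36, adjusted p = 0.045, and above 0.05 without any 1 of libraries 10, 11, 12, 13, 15 and 16), and CDKN1B 28.3 ± 4.10 CPM against 31 ± 4.58 CPM (−0.14, adjusted p = 0.51).

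CDKN2A, the gene of p16 and ARF, was the only member with a lower level in the even libraries that passed the adjusted p. It was 296, 318, 332 and 151 CPM in the even and 424, 272, 413 and 465 CPM in the odd libraries. The ranges overlapped, and library 16 was far below the other even ones (log2 fold change −0.54, SE 0.18, adjusted p = 0.021). Without library 16 the value was −0.33 with an adjusted p of 0.059, and without library 11, 15 or 17 the adjusted p was also above 0.05.

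Among the surrounding genes, of 18 damage-induced genes, 6 were called up and 0 down, among them GDF15 (log2 fold change 2.94) and the repair factor DDB2 (1.36), with a median of 0.73. Over all genes, 9.52% were called up and 4.45% down, and 34.9% passed the adjusted p alone. Of 12 G2/M genes, 2 were called up and 0 down, the kinase AURKA (1.47) and KIF20A (1.11), and 11 passed the adjusted p alone in that direction. Of 12 S-phase genes, 0 were called in either direction, 1 passed the adjusted p alone as higher and 6 as lower. The G1 cyclins CCNE2 (1.07) and CCND1 (1.06) were higher, and in the RB and E2F list E2F5 (−1.48) was lower.

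MYC had the largest difference among the regulators, at 11.5 ± 4.94 CPM in the even and 104 ± 47.3 CPM in the odd libraries (log2 fold change −3.27, adjusted p = 1.5e-08). ATM (35 ± 5.52 against 29.6 ± 7.0 CPM, adjusted p = 0.31) was not called. Next to CDKN1C, PHLDA2 was higher (1.73, adjusted p = 2.4e-09), here in the same direction as CDKN1C. The summed U2OS markers differed between these libraries, at 160 to 248 CPM in the even and 75.8 to 84.7 CPM in the odd libraries. Of the 9 tested, 4 were called up, among them ANXA1 (2.82) and CLU (1.58) without overlap. Another 2 of the 9 had a log2 fold change below 0. By adjusted p alone 1 marker was lower, and 1 was lower without overlap. HEK293T markers summed to 404 to 445 CPM and 322 to 439 CPM, with none at 0 in a whole group, and 1 of the 8 was called up. The part of the markers in the inhibitor differences was not tested.

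**Figure D3:**
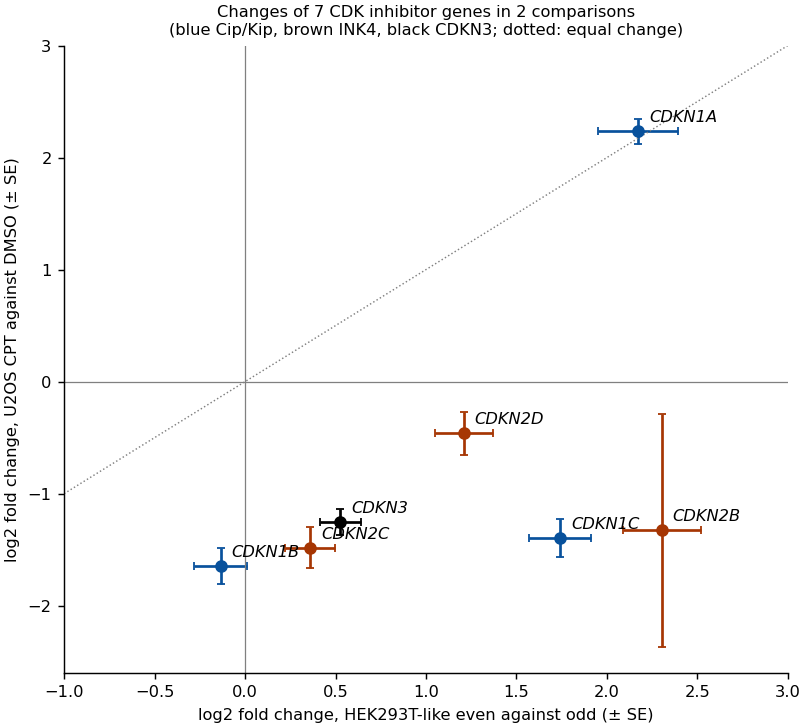
Log2 fold change with its SE of 7 CDK inhibitor genes with CPT in U2OS cells (vertical axis) against HEK293T-like even over odd libraries (horizontal axis); blue marks Cip/Kip genes, brown INK4 genes and black CDKN3, and the dotted line marks equal change. CDKN1A lies near the dotted line (2.24 and 2.17), while CDKN1C lies at −1.39 and 1.74.

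The 2 sets of changes share no library, and their difference was tested directly as an interaction over the 16 libraries. Of the 8 inhibitor genes, 6 differed at an adjusted p under 0.05, against 20.3% of the 22363 genes tested. CDKN1C had the lowest adjusted p of the 8, with a log2 fold change lower by 3.14 in U2OS CPT (SE 0.25, adjusted p = 1.3e-13) and opposite calls in the separate fits. CDKN2B differed by −3.66 (SE 0.93, adjusted p = 0.0022), with few reads on the U2OS side. The differences were −1.85 for CDKN2C (adjusted p = 5.7e-08), −1.78 for CDKN3 (1.5e-11), −1.67 for CDKN2D (3.4e-06) and −1.51 for CDKN1B (1.1e-06). CDKN1A differed by 0.050 (SE 0.25, adjusted p = 0.99), with a 95% interval of −0.45 to 0.55, so that differences between its 2 changes of up to 0.55 on the log2 scale could not be seen here. CDKN2A, with 5 reads on the U2OS side, gave no usable estimate (interval −1.85 to 4.46).

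In the same interaction, 12 of 12 G2/M genes differed and were lower in the U2OS CPT change, with a median difference of −1.68. The same held for 7 of 12 S-phase genes, while 20.3% of all genes differed in either direction. Of the damage-induced genes, 7 of 18 differed toward a larger rise in U2OS CPT and 1 the other way. Among all genes, 2206 differences were positive and 2338 negative, and without TMM scaling 1467 and 3317.

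The U2OS-like even and odd libraries gave 1 call in the family. Of 18591 genes tested, 2.8% were called up and 2.44% down, and 13% passed the adjusted p alone. Among the 7 inhibitor genes that could be tested, CDKN2B was called lower in the even libraries. It had 0 reads in libraries 2, 4, 6 and 8 and 4, 3, 6 and 8 reads in libraries 1, 3, 5 and 7, or 2.82, 1.30, 1.64 and 2.18 CPM. The gene passed the count filter only through the odd libraries, so its call is a description and no fold is given. With so few reads it falls out under the stricter filterByExpr filter, and 0 members are then called.

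The other members differed little between these libraries. CDKN1A was 77.9, 104, 94.9 and 162 CPM in the even and 76.2, 88.7, 97.5 and 125 CPM in the odd libraries. The ranges overlapped, with library 8 the highest of the 8 (log2 fold change 0.15, 95% interval −0.17 to 0.47, adjusted p = 0.62). CDKN3 was 196 ± 25.9 CPM against 169 ± 20.5 CPM (0.17, 95% interval −0.12 to 0.46). The 95% intervals of CDKN1B (−0.35 to 0.31), CDKN1C (−0.23 to 0.55), CDKN2C (−0.29 to 0.40) and CDKN2D (−0.40 to 0.44) all held 0 and left out a 2-fold change. Library 8 was also the highest of the 8 for CDKN1C (34.0 CPM), CDKN2D (23.2 CPM) and CDKN3 (231 CPM). CDKN2A, with 9 reads in the even and 1 in the odd libraries, was not tested. The HEK293T marker ZIC5, at 0 in the 12 other U2OS and U2OS-like libraries, had reads in the even libraries, at no more than 0.811 CPM. In these libraries the floor of 3 counts equals 0.516 to 2.43 CPM. CDKN2A had 8 reads in library 8 and 0 in library 2, and a link between ZIC5 and the CDKN2A reads was not tested.

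In these libraries 1 of the 18 damage-induced genes was called, GDF15 (log2 fold change 1.25), while 6 passed the adjusted p alone as higher and 0 as lower, with a median of 0.36 against 0.040 over all genes. Among all genes, 2.8% were called up and 2.44% down, and 13% passed the adjusted p alone. Of the G2/M genes 0 of 12 were called, and 0 of 12 cyclins and CDKs. Among the regulators BMI1, a Polycomb protein known for repressing CDKN2A, was higher (1.19, adjusted p = 1.6e-08). In the neighbourhood of CDKN2B, DMRTA1 was lower (−1.0, adjusted p = 1.3e-04). Among line markers CRYAB was higher (1.30) and THBS1 lower (−1.37), and the sums of the U2OS markers overlapped, at 3956 to 4794 CPM and 3709 to 5968 CPM.

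The change with CPT in U2OS was also set against that of the U2OS-like even libraries, in an interaction that shares no library between the 2 changes. Of the 8 inhibitor genes, 5 differed, against 17.7% of 20539 genes. CDKN1A rose more by 2.08 on the log2 scale (SE 0.21, adjusted p = 3.7e-12). CDKN1B (−1.62, adjusted p = 1.3e-07), CDKN1C (−1.56, 8.7e-06), CDKN2C (−1.54, 3.1e-06) and CDKN3 (−1.42, 1.1e-08) had the lower change with CPT. CDKN2D differed by −0.49 (95% interval −1.08 to 0.092, adjusted p = 0.26). CDKN2B (adjusted p = 0.058) and CDKN2A (0.66) rested on few reads. Without TMM scaling the split of all differing genes went from 1849 positive and 1785 negative to 1205 and 2637.

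Over all 8 groups of 4 libraries, each gene had its own order of levels. CDKN1A was highest in U2OS CPT (401 ± 21.8 CPM), without overlap with HEK293T-like even (156 ± 49.7), which overlapped with U2OS-like even (110 ± 36.3). U2OS-like odd (96.8 ± 20.6) and U2OS DMSO (95.9 ± 6.30) followed with overlap. A gap separated these from HEK293T-like odd (34.6 ± 15.9), HEK293T DMSO (29.3 ± 9.34) and HEK293T ATM inhibitor (26.8 ± 2.09), whose ranges overlapped.

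CDKN3 had the most steps. U2OS-like even (196 ± 25.9 CPM), U2OS-like odd (169 ± 20.5) and U2OS DMSO (148 ± 11.6) overlapped with their neighbours, and then HEK293T-like even (95.4 ± 5.07), HEK293T-like odd (65.1 ± 2.03), U2OS CPT (55.0 ± 3.03) and HEK293T ATM inhibitor (47.1 ± 1.62) each lay below the one before without overlap, with HEK293T DMSO (46.2 ± 4.38) overlapping the last. CDKN1C was highest in HEK293T-like even (39.5 ± 5.88 CPM), just above U2OS DMSO without overlap. U2OS-like odd (21.1 ± 3.50) lay above HEK293T DMSO (14.7 ± 0.974) without overlap, and the lowest, U2OS CPT (8.86 ± 0.475), overlapped with HEK293T-like odd (11.8 ± 2.85).

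CDKN1B and CDKN2C were lowest in U2OS CPT, at 11.9 ± 1.28 and 8.75 ± 0.753 CPM, without overlap with the next group, while all other neighbours in their orders overlapped. CDKN2D overlapped between all neighbours, from 29.3 ± 2.98 CPM in HEK293T-like even to 12.4 ± 1.33 CPM in HEK293T-like odd. CDKN2B had 26.9 ± 2.14 CPM in HEK293T-like even and 5.45 ± 2.16 CPM in the next group, HEK293T-like odd, without overlap. Below these, CDKN2B overlapped between neighbours except that U2OS-like odd (1.99 ± 0.666) lay above U2OS DMSO (0.704 ± 0.514). CDKN2A overlapped between neighbours within the HEK293T groups, from 394 ± 84.0 to 274 ± 83.7 CPM, and within the U2OS groups, at 0.387 CPM or less on average.

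Genes whose pattern over the 8 groups was most like that of a member were found by the root mean square difference of centred mean log2(CPM + 1), among 11410 genes with at least 10 CPM in a group. For CDKN1A these were AC119751.3 (0.32), INKA2 (0.43) and ITIH5 (0.43). For CDKN1B they were THRA (0.16), the checkpoint kinase BUB1B (0.20) and GPSM2 (0.20), and for CDKN1C the mitotic genes KIF4A (0.13), AURKA (0.21) and SGO2 (0.22). CDKN2C was closest to PLK1 (0.20), ETS2 (0.20) and KIF11 (0.20), and CDKN3 to CDCA2 (0.27), STAG1 (0.28) and HS6ST1 (0.29). CDKN2A was closest to CHCHD10 (0.19), MARCKS (0.28) and UCHL1 (0.44), CDKN2B to PRSS23 (0.40), SCG3 (0.41) and MSX2 (0.44), and CDKN2D to MYEF2 (0.13), FAM83D (0.14) and PDE4A (0.15). The log2 range of a member over the groups was 8.51 for CDKN2A, 4.80 for CDKN2B, 3.86 for CDKN1A and 1.18 for CDKN2D.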

How the data were processed

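Transcript 3′ ends of 32 libraries were sequenced (QuantSeq 3′ FWD with UMIs). The authors counted reads on genes with the Lexogen UMI pipeline and deposited raw counts, without normalization; genome build and annotation are not given in the sources used here. The 92 spike-in rows, all 0, and 5 rows that name no gene were left out; reads on no gene or on several made up 10.9 to 40.6% of counts. Symbols came from GENCODE 29 (56531 of 60107 identifiers).

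Groups followed the labels' arm and, for libraries 1 to 17, the cell line of the profile. Genes over 1 count in 2 or more libraries of a comparison were tested with edgeR 4.0.16 (TMM, quasi-likelihood, Benjamini-Hochberg) in R 4.3.3. The procedure was run on simulated counts with the same replicate spread for every gene and changes only in genes above a minimum level. That setting does not cover the uneven replicates or the members with few reads here. Alternatives were RLE factors, the likelihood ratio test, DESeq2 1.42.0, filterByExpr, no filter, 1 fit of all libraries, no fold cutoff, other groups by label and each library left out; no TMM scaling, and all alternatives of the 2 interactions, were added after seeing the data. Replicate pairs differed beyond sampling noise (chi-square per degree of freedom at least 1.73 over 48 pairs). The largest values were 22.3 and 21.3, for library 8 against libraries 6 and 4 of the U2OS-like even group. Members and gene lists were chosen with earlier results of these data known. Named were all members, ATM, up to 3 called genes per list and direction without overlap and with mean log2 CPM over 3, and the 3 genes of most like pattern; CDKN2B-AS1, SKP2 and CKS1B were added after their values were seen; some genes of the rule are not reported here. p-values set each difference against the spread between these libraries, which edgeR estimates partly across all genes.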

Additional observations from a re-analysis of the deposited data

Results flagged for a closer look

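Among 63 sets of 4 libraries of a member with any reads, 6 had 1 library far from the other 3 in CPM. Chance flags about 1 in 20 sets of continuous values, a rate that does not apply to sets with nearly no reads. CDKN1A stood at 434 CPM in library 26 of U2OS CPT, above 389 to 393 CPM in the others. CDKN1C stood at 31.8 CPM in library 30 of U2OS DMSO, above 24.5 to 24.8 CPM. CDKN2D stood at 10.6 CPM in library 18 of the HEK293T ATM inhibitor, below 13.9 to 14.4 CPM. The other 3 were CDKN2A in U2OS or U2OS-like libraries, where any single library with reads stands apart by construction when the rest are at 0, at 0.883 CPM in library 26 (3 reads), 0.274 CPM in library 5 (1 read) and 1.37 CPM in library 8 (8 reads).

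The change of 6 members with CPT in U2OS differed, by the interaction test of edgeR, from that of the HEK293T-like even against odd libraries. The differences on the log2 scale were −1.78 for CDKN3, −1.51 for CDKN1B, −1.85 for CDKN2C, −1.67 for CDKN2D, −3.14 for CDKN1C and −3.66 for CDKN2B. Against the U2OS-like even libraries 5 members differed, at −1.42 for CDKN3, −1.62 for CDKN1B, −1.54 for CDKN2C, 2.08 for CDKN1A and −1.56 for CDKN1C. The labels of the HEK293T-like and U2OS-like libraries are contradicted by their profiles, so treatment and library set cannot be told apart in these differences.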

How the results depend on the processing

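In U2OS CPT, all 5 calls of members were made under each of the 8 alternative settings and with each library left out (CDKN1A 2.06 to 2.27 on the log2 scale). Genes called moved from 2569 to 1652 with filterByExpr and 6091 without the fold cutoff. In the HEK293T ATM inhibitor comparison 0 members were called in any setting, while genes called went from 0 to 2 with the likelihood ratio test, 2 without a filter and 1 with all libraries in 1 fit, without the fold cutoff or without TMM scaling; leaving out 1 library gave 0 to 14 (14 without library 21, 1 without library 18). In the HEK293T-like comparison genes called moved from 2718 to 1461 (filterByExpr) and 6785 (no fold cutoff, 7 members called). In the U2OS-like comparison they moved from 974 to 644 (filterByExpr, 0 members) and 2415 (no fold cutoff), and in U2OS against HEK293T DMSO from 7872 to 5090 and 12256; filterByExpr drops CDKN2B there too, which leaves 4 of 5 members called. Grouped by label, the libraries labelled HEK293T CPT against all 8 labelled HEK293T DMSO gave 1193 genes and 2 members called, with reversed values for CDKN1B (0.40) and CDKN2B (−6.67), and those labelled U2OS ATM KO against U2OS WT gave 631 genes and 3 members, with CDKN2B reversed (2.58). These mix cell lines by profile.

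Reversals otherwise fell on values that were not called. With all 8 libraries labelled HEK293T DMSO as controls of the ATM inhibitor these were CDKN2A (0.45), CDKN2C (−0.19) and CDKN3 (−1.23). Those 8 include libraries 3, 5 and 7, which are U2OS-like, so this setting also mixes cell lines by profile. Other reversals were, without TMM scaling, CDKN2C in the ATM inhibitor comparison (−0.029), CDKN1B in the U2OS-like (0.010) and CDKN2C in the U2OS against HEK293T comparison (−0.17). With DESeq2 CDKN2D reversed in the U2OS-like comparison (−0.021), and for the first interaction CDKN1A with filterByExpr (−0.0039) and without TMM scaling (−0.13). With 1 library left out, ranges that crossed 0 were, for the ATM inhibitor, −0.20 to 0.12 (CDKN1A), −0.13 to 0.043 (CDKN1B) and −0.042 to 0.11 (CDKN2C), for the U2OS-like libraries −0.069 to 0.26 (CDKN1A), −0.10 to 0.027 (CDKN1B), −0.067 to 0.27 (CDKN1C), −0.041 to 0.11 (CDKN2C) and −0.24 to 0.10 (CDKN2D), for U2OS against HEK293T −0.067 to 0.16 (CDKN2C) and for the first interaction −0.27 to 0.34 (CDKN1A) and −2.02 to 1.79 (CDKN2A). The cause of these changes was not tested. No paired analysis was run, because libraries carry only a library number and no label names the repeat that a library belongs to. The tests therefore ignore any pairing. Depth limits CDKN2A and CDKN2B in U2OS and U2OS-like libraries, where 3 counts equal up to 2.43 CPM.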
